A study of Homo sapiens with 6 samples.

Results

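The kinetochore, centromere and spindle checkpoint genes described here are 41 genes listed by the function of their products. A gene was represented by the probe set that carries its symbol alone and has the highest mean log2 signal over all 6 arrays. By this rule 40 of the 41 genes were measured, among 19775 genes with such a probe set on the array, and all 40 passed the brightness filter that left 12216 genes for testing. CENPP, a subunit of the inner kinetochore, shares its probe set with a second gene symbol and was not analysed here. All samples were OVCA432, an established line of human ovarian cancer cells of the high grade serous type. MFAP5 cells received 200 ng/mL of recombinant human MFAP5 protein, a secreted glycoprotein of extracellular microfibrils, and control cells received solvent only. Cells of both groups had been kept without serum for 24 h and stayed in serum-free medium until RNA was taken 48 h after the additions. Each group had 3 independently prepared samples on Affymetrix U133 Plus 2.0 arrays, and the comparison asks which transcripts of a tumour cell differ after exposure to this stromal protein.

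The kinetochore is the protein assembly that ties a chromosome to the spindle in mitosis. It is built on centromeric chromatin marked by the histone variant CENP-A. An inner layer, the constitutive centromere associated network (CCAN), stays on CENP-A chromatin through most of the cell cycle, and in mitosis it recruits an outer layer, the KNL1, MIS12 and NDC80 complexes, which grips microtubules. The spindle checkpoint reads unattached kinetochores and holds back anaphase, while Aurora B kinase in the chromosomal passenger complex releases faulty attachments. Many of these genes are transcribed mainly in late S phase, G2 and mitosis.

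The deposited values were MAS5 signals, on a linear scale, that had been scaled so that the trimmed mean of every array was close to 500.07. Across probe sets, which are not independent of each other, Pearson's r of log2 signals was 0.984 to 0.988 for pairs of arrays within a group and 0.967 to 0.971 for an MFAP5 array paired with a control array. The log2 ratio of 3′ to 5′ control probe sets averaged -0.10 ± 0.034 in MFAP5 cells and -0.13 ± 0.071 in control cells for GAPDH (SD, n = 3 each, exact permutation test, two-sided p = 0.5), and 0.28 ± 0.062 and 0.30 ± 0.056 for ACTB (p = 0.6). The smallest p this exact test allows with 3 arrays a group is 0.1. All 9 markers of serous ovarian epithelium had signals above all 27 Bacillus spike-in control probe sets on each of the 6 arrays, as did 2 of 6 fibroblast markers, 0 of 3 leukocyte markers and 0 of 4 endothelial markers. The epithelial markers summed to 96652 to 104147 in MFAP5 cells and 86659 to 96910.4 in control cells, and the fibroblast markers to 265 to 371 in MFAP5 cells and 262 to 305 in control cells. The epithelial list did not move one way: mean signals of PAX8, MUC16, EPCAM, KRT7, KRT18 and CDH1 were higher in MFAP5 cells, and those of WT1, WFDC2 and KRT8 were lower. MUC16 averaged 1618 in MFAP5 cells and 446 in control cells, and WFDC2 averaged 2457 in MFAP5 cells and 4178 in control cells. All 40 kinetochore and checkpoint genes lay above the brightest Bacillus control on all 6 arrays.

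Most of the genes were lower in MFAP5 cells. Of the 40 genes, 24 fell (60.0%), 1 rose and 15 were not called (limma, adjusted p below 0.05), where 15.3% of all 12216 genes tested fell and 14.6% rose. The genes were listed with earlier results of these data known, so these shares describe the list and do not test it. On arrays centred on their medians 28 of the 40 genes fell and 1 rose, where 28.1% of all genes fell and 9.15% rose. The fall was modest in size: 12 of the 40 genes fell by 1.5-fold or more, against 3.49% of all genes, and 1 fell by 2-fold or more, against 0.696%. The median log2 fold change of the 40 genes was -0.42, from -1.21 for AURKB to 0.41 for MIS12, beside -0.0084 for all genes tested. These were bulk samples, in which fewer cells in G2 and mitosis and less mRNA per cell cannot be told apart. For 27 of the 40 genes all 3 MFAP5 arrays lay below all 3 control arrays, as they did for 23.6% of all genes, and for 1 gene they lay above, as they did for 22.3%.

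**Figure D1:**
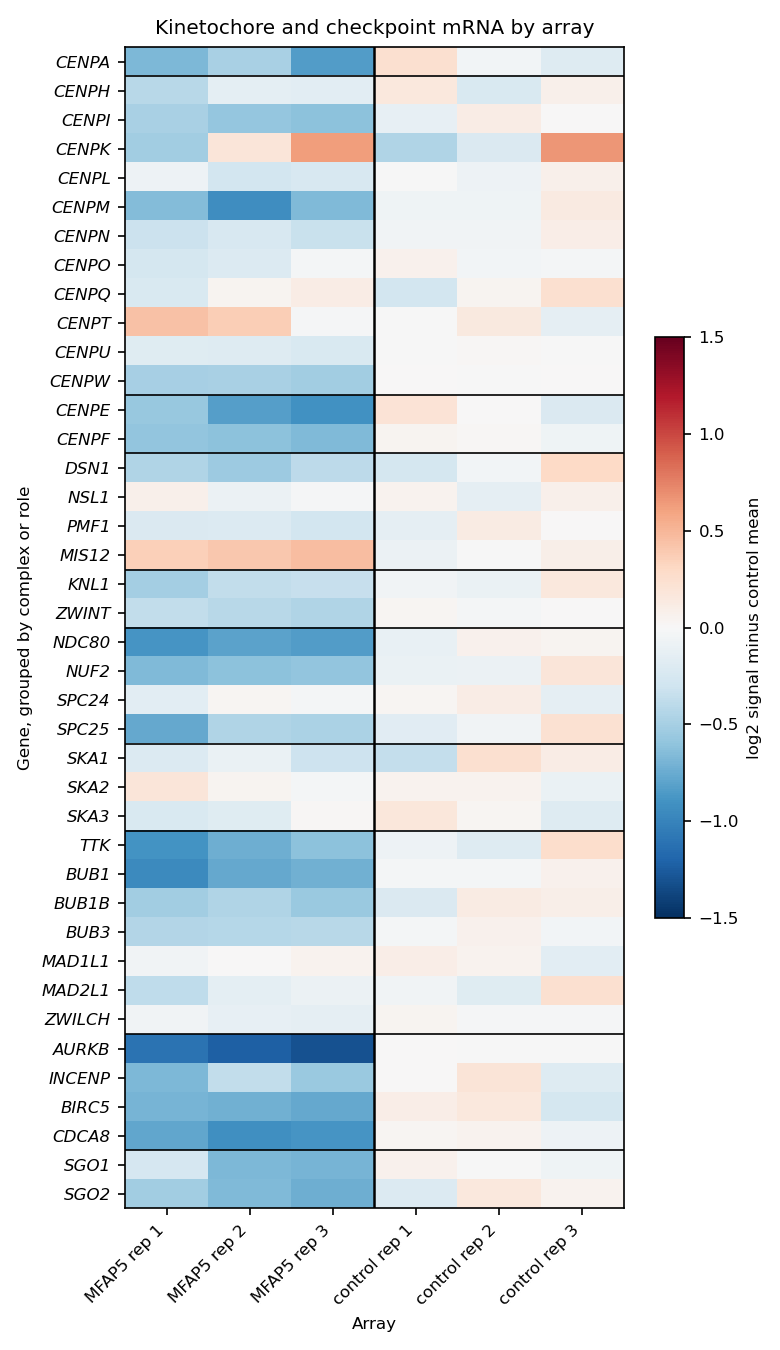
The log2 signal of each of the 40 genes on each array, minus the mean of that gene over the 3 control arrays, with genes grouped by complex or role and MFAP5 arrays left of control arrays. The median over genes was -0.44, -0.39 and -0.41 on MFAP5 arrays 1, 2 and 3, against -0.0068, -0.0017 and 0.0069 on control arrays 1, 2 and 3.

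The shift was alike on the 3 MFAP5 arrays. Relative to the control mean of each gene, 36, 33 and 35 of the 40 genes were lower on MFAP5 arrays 1, 2 and 3, against 22, 21 and 17 on the control arrays. In the heat map of the genes by array CENPK is uneven in both groups, with 165 to 367 on the MFAP5 arrays and 174 to 376 on the control arrays.

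At the centromere itself, CENPA encodes the histone variant that marks the site of kinetochore assembly. Its signals were 721, 816 and 639.9 on the MFAP5 arrays, against 1356, 1112 and 999.9 on the control arrays. The groups did not overlap, and CENPA was 1.59-fold lower in MFAP5 cells (log2 fold change -0.67 ± 0.13, SE, limma adjusted p = 0.00416). Its only probe set is of a type that may also bind related transcripts.

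Among the 11 CCAN genes measured, 5 fell and 6 had no call, with a median log2 fold change of -0.20. CENPH, CENPI, CENPK and CENPM encode one CCAN subcomplex, and within it CENPM and CENPI fell. CENPM signals were 899, 741 and 888 on the MFAP5 arrays, against 1344, 1350.2 and 1546 on the control arrays, a level 1.68-fold lower with MFAP5 (log2 fold change -0.75 ± 0.10, SE, limma adjusted p = 0.000573). CENPI signals were 499, 466 and 456 on the MFAP5 arrays, against 642, 757 and 705 on the control arrays. CENPI was 1.48-fold lower (log2 fold change -0.56 ± 0.10, SE, limma adjusted p = 0.00310), and both genes had groups that stood clear of each other. CENPH overlapped between groups (log2 fold change -0.24, limma adjusted p = 0.179), and so did CENPK (0.10, adjusted p = 0.860).

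CENPN, which with CENPL binds the CENP-A nucleosome, had signals of 2566, 2722 and 2545 on the MFAP5 arrays, against 3117, 3099 and 3459.8 on the control arrays. It was 1.23-fold lower (limma adjusted p = 0.0108), and the call was lost in 4 alternatives, with adjusted p from 0.0555 to 0.492. The mean of its probe sets gave a log2 fold change of -0.16. On its brightest probe set of the plain type the log2 fold change turned positive (0.11, limma adjusted p = 0.492). CENPL was lower on every MFAP5 array than on any control array, but its log2 fold change of -0.20 did not pass the test (limma adjusted p = 0.135). CENPW, a histone-fold partner of CENPT, had 2459.7, 2490.3 and 2422 on the MFAP5 arrays, against 3497, 3457 and 3479 on the control arrays. CENPW was 1.42-fold lower with a narrow spread in both groups (log2 fold change -0.50 ± 0.060, SE, limma adjusted p = 0.000264). Its partner CENPT overlapped and had a positive log2 fold change of 0.26 (limma adjusted p = 0.299).

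CENPO, CENPQ and CENPU belong to a further CCAN subcomplex, in which CENPU is the docking site of the kinase PLK1. CENPU signals were 4375, 4341 and 4233 on the MFAP5 arrays, against 4938, 4999 and 4916 on the control arrays, a small fall of 1.15-fold (limma adjusted p = 0.0293). That call did not hold in 9 of 16 alternatives, among them the fits without MFAP5 replicate 2 or 3 or control replicate 1 or 2 (limma adjusted p from 0.0782 to 0.0961). On arrays centred on their medians its log2 fold change was -0.34, beside -0.20 in the comparison above. CENPO and CENPQ overlapped between groups, with log2 fold changes of -0.16 and -0.027 that did not pass the test.

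Both genes of the fibrous corona, the outermost layer of an unattached kinetochore, fell. CENPE encodes the kinesin that carries chromosomes along microtubules to the spindle equator. Its signals were 1697, 1417 and 1344 on the MFAP5 arrays, against 2907, 2542 and 2170.03 on the control arrays, which is 1.71-fold lower (log2 fold change -0.77 ± 0.12, SE, limma adjusted p = 0.00118). CENPF, a large microtubule-binding protein, had 2974, 2922 and 2831 on the MFAP5 arrays, against 4629, 4551 and 4279 on the control arrays. It was 1.54-fold lower (log2 fold change -0.62 ± 0.063, SE, limma adjusted p = 9.06e-05), and its groups were apart by more than the spread within either. Its other tested probe set overlapped between groups, and averaged over both the log2 fold change of CENPF was -0.40.

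**Figure D2:**
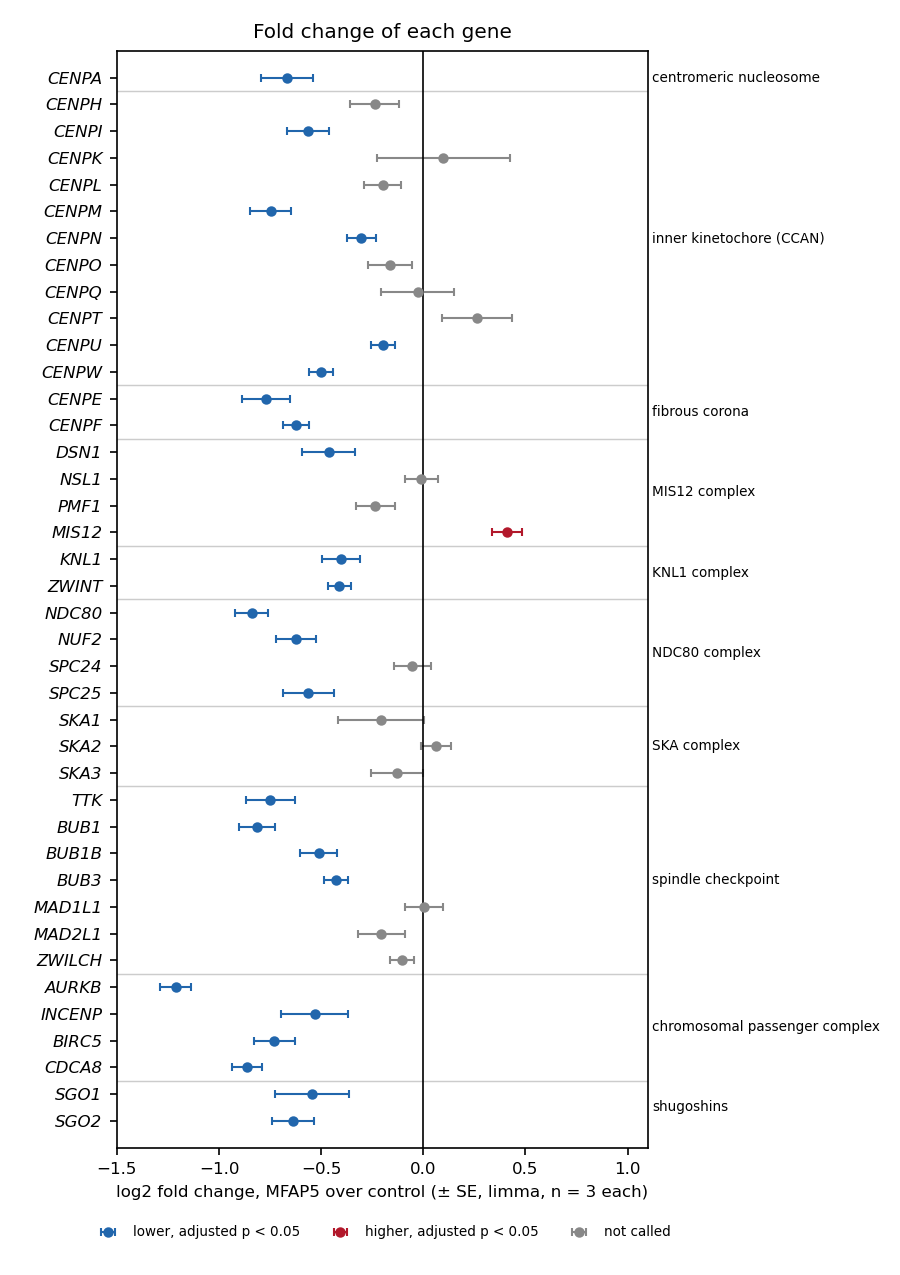
The log2 fold change of MFAP5 over control for each of the 40 genes, with standard errors from limma (n = 3 arrays each), ordered by complex or role. All 4 genes of the chromosomal passenger complex lie below 0, AURKB at -1.21, and MIS12, at 0.41, is the only gene called higher.

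In the MIS12 complex of the outer kinetochore, which links the CCAN to the microtubule-binding proteins, DSN1 fell, MIS12 rose, and NSL1 and PMF1 were not called. MIS12 signals were 2181, 2257 and 2349.8 on the MFAP5 arrays, against 1602, 1699.96 and 1805 on the control arrays. All MFAP5 arrays were above all control arrays, and MIS12 was 1.33-fold higher (log2 fold change 0.41 ± 0.073, SE, limma adjusted p = 0.00274). The MIS12 call was lost only on arrays centred on hybridisation controls (adjusted p = 0.123), with adjusted p from 0.00136 to 0.123 over the settings run, and on arrays centred on their medians its log2 fold change was 0.27. DSN1 signals were 911, 854 and 946 on the MFAP5 arrays, against 1040.1, 1208 and 1535 on the control arrays. The groups did not overlap, although the control arrays were spread widely. DSN1 was 1.38-fold lower (log2 fold change -0.46 ± 0.13, SE, limma adjusted p = 0.0253). Its call was lost without MFAP5 replicate 1 or 2 or control replicate 2 or 3 (adjusted p from 0.0505 to 0.0897). PMF1 did not overlap between groups but missed the threshold (log2 fold change -0.23, limma adjusted p = 0.0996), and NSL1 overlapped (-0.011).

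KNL1 is the scaffold on which the checkpoint kinases act, and ZWINT is its partner. KNL1 signals were 1004, 1105 and 1122 on the MFAP5 arrays, against 1369, 1325 and 1593 on the control arrays, 1.32-fold lower with MFAP5 (limma adjusted p = 0.0102). The KNL1 call was lost on arrays centred on hybridisation controls (adjusted p = 0.0527, the highest of its settings, the lowest being 0.00291). ZWINT signals were 7695, 7420.2 and 7248 on the MFAP5 arrays, against 10083, 9733 and 9915 on the control arrays. ZWINT was 1.33-fold lower (log2 fold change -0.41 ± 0.057, SE, limma adjusted p = 0.000643), with a gap between the groups wider than the range within either.

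The NDC80 complex is a rod of 4 proteins: NDC80 and NUF2 bind the microtubule at one end, and SPC24 and SPC25 hold the MIS12 complex at the other. NDC80 signals were 821, 865 and 848 on the MFAP5 arrays, against 1402, 1586 and 1552 on the control arrays. NDC80 was 1.79-fold lower (log2 fold change -0.84 ± 0.081, SE, limma adjusted p = 6.87e-05). NUF2 signals were 732, 759 and 769 on the MFAP5 arrays, against 1082, 1095 and 1322 on the control arrays, 1.54-fold lower (limma adjusted p = 0.00128). SPC25 signals were 617, 767 and 754 on the MFAP5 arrays, against 929, 1008 and 1229 on the control arrays, 1.48-fold lower (limma adjusted p = 0.00897). These 3 genes had no overlap between groups. The remaining subunit, SPC24, had 1281, 1459 and 1409.95 on the MFAP5 arrays, against 1458, 1544 and 1307 on the control arrays. Its groups overlapped, and its log2 fold change of -0.053 ± 0.089 (SE) did not pass the test (limma adjusted p = 0.704).

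Ratios of these genes within an array do not depend on how the array was scaled, and the pairs given here were chosen after their values were seen, so no test is given. The log2 ratio of NDC80 to SPC24 was -0.64, -0.75 and -0.73 on the MFAP5 arrays, against -0.057, 0.039 and 0.25 on the control arrays. The log2 ratio of DSN1 to MIS12 was -1.26, -1.40 and -1.31 on the MFAP5 arrays, against -0.62, -0.49 and -0.23 on the control arrays. Each pair sets a gene that fell over one that did not, so the choice itself fixes that the ratios are lower on the MFAP5 arrays.

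The SKA complex strengthens the grip of NDC80 on microtubules, and none of its 3 genes was called. SKA1 had 118, 127 and 109.5 on the MFAP5 arrays, against 106, 161 and 147 on the control arrays. The standard error of its log2 fold change was 0.21. SKA2 had 10389.7, 9492 and 8976 on the MFAP5 arrays, against 9506, 9551 and 8549 on the control arrays, and SKA3 had 388, 401 and 458 on the MFAP5 arrays, against 509, 461 and 398 on the control arrays. All 3 genes overlapped between groups, with log2 fold changes of -0.21 for SKA1, 0.063 for SKA2 and -0.13 for SKA3.

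**Figure D3:**
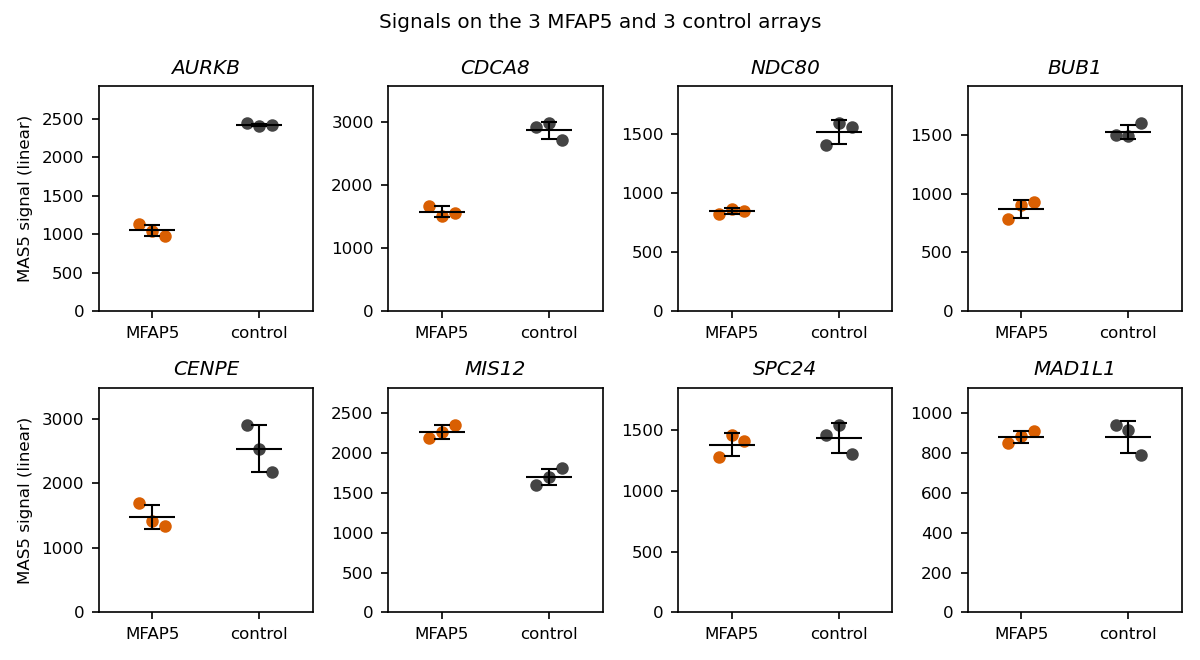
MAS5 signals (linear scale) of 8 genes on the 3 MFAP5 and 3 control arrays, with points for arrays and bars for the mean and SD. AURKB, CDCA8, NDC80, BUB1 and CENPE were lower on every MFAP5 array, MIS12 was higher on every MFAP5 array, and SPC24 and MAD1L1 overlapped.

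The 7 spindle checkpoint genes included 4 that fell, 0 that rose and 3 without a call by limma. TTK, which encodes the kinase MPS1 that starts the checkpoint signal, had 921, 1030.4 and 1113 on the MFAP5 arrays, against 1629.9, 1495 and 2057 on the control arrays. TTK was 1.68-fold lower (log2 fold change -0.75 ± 0.12, SE, limma adjusted p = 0.00163). BUB1, a kinase that marks centromeric histone H2A and recruits other checkpoint proteins, had 787, 902 and 932 on the MFAP5 arrays, against 1499, 1494 and 1601 on the control arrays. BUB1 was 1.76-fold lower (log2 fold change -0.81 ± 0.088, SE, limma adjusted p = 0.000146), and neither gene overlapped between groups. BUB1B encodes BUBR1, a part of the complex that blocks the anaphase promoting complex, and had 2882, 3020.4 and 2809 on the MFAP5 arrays, against 3574, 4527 and 4396 on the control arrays. BUB1B was 1.43-fold lower without overlap (limma adjusted p = 0.00264). BUB3, which carries BUB1 and BUBR1 to the kinetochore, had 8169.9, 8183 and 8284 on the MFAP5 arrays, against 10815, 11568 and 10780 on the control arrays. BUB3 was 1.35-fold lower, with a gap between groups wider than the range within either (limma adjusted p = 0.000551).

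The MAD genes and ZWILCH did not pass the test. MAD1L1 encodes MAD1, which holds MAD2 at unattached kinetochores, and had 853, 885 and 911 on the MFAP5 arrays, against 942, 918 and 792 on the control arrays. Its groups overlapped and its log2 fold change was 0.0015 ± 0.093 (SE, limma adjusted p = 0.994). MAD2L1, which encodes MAD2, the protein that inhibits CDC20, had 1587, 1874 and 1941 on the MFAP5 arrays, against 1989, 1822 and 2446 on the control arrays. It overlapped as well (log2 fold change -0.21 ± 0.12, SE, limma adjusted p = 0.226). ZWILCH, a subunit of the complex that brings dynein and MAD1 to kinetochores, lay below control on every MFAP5 array, but by a log2 fold change of only -0.11 (limma adjusted p = 0.214). The log2 ratio of BUB1 to MAD1L1, a pair also chosen after its values were seen, was -0.12, 0.028 and 0.033 on the MFAP5 arrays, against 0.67, 0.70 and 1.01 on the control arrays.

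All 4 genes of the chromosomal passenger complex fell, with a median log2 fold change of -0.80. AURKB encodes its kinase, Aurora B. Its signals were 1128, 1042 and 977 on the MFAP5 arrays, against 2443, 2413 and 2422 on the control arrays. On the brightest probe sets AURKB had the largest fall of the 40 genes, 2.32-fold (log2 fold change -1.21 ± 0.076, SE, limma adjusted p = 4.11e-06), and stood at percentile 0.352 of the log2 fold changes of all genes tested. With the mean of both its probe sets the log2 fold change of AURKB was -0.77, smaller than those of BUB1 (-0.92), CDCA8 (-0.86) and NDC80 (-0.84), and no gene then fell by 2-fold. CDCA8 encodes borealin, which takes the complex to centromeric nucleosomes, and had 1672, 1515 and 1558 on the MFAP5 arrays, against 2924, 2984 and 2715 on the control arrays. CDCA8 was 1.82-fold lower (log2 fold change -0.86 ± 0.073, SE, limma adjusted p = 2.87e-05).

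BIRC5 encodes survivin, the subunit that reads phosphorylated histone H3, and had 3509, 3460.2 and 3357 on the MFAP5 arrays, against 6113, 6384 and 4768 on the control arrays. BIRC5 was 1.66-fold lower (log2 fold change -0.73 ± 0.10, SE, limma adjusted p = 0.000631), with control replicate 3 lower than the other control arrays. INCENP, the scaffold that activates the kinase, had 152, 189 and 165 on the MFAP5 arrays, against 243, 277 and 214 on the control arrays. INCENP was 1.45-fold lower (limma adjusted p = 0.0392). Its groups did not overlap, but the call was lost without MFAP5 replicate 1, 2 or 3 or control replicate 1 or 2 (limma adjusted p from 0.0521 to 0.137).

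The shugoshins guard cohesin at the centromere until anaphase, and both fell. SGO2 had 1493, 1354 and 1283 on the MFAP5 arrays, against 1850.1, 2386 and 2213 on the control arrays, 1.56-fold lower (log2 fold change -0.64 ± 0.10, SE, limma adjusted p = 0.00157). SGO1 had 168, 125 and 123 on the MFAP5 arrays, against 209.99, 200.04 and 192 on the control arrays, 1.46-fold lower (limma adjusted p = 0.0488). The SGO2 groups were well apart, and the SGO1 groups nearly met. The SGO1 call was lost without MFAP5 replicate 2 or 3 or any 1 control replicate (limma adjusted p from 0.0722 to 0.143). It was also lost on arrays centred on hybridisation controls, without the filter and with the mean of its probe sets, which gave a log2 fold change of -0.25 (limma adjusted p = 0.330). The second SGO1 probe set overlapped between groups, with a log2 fold change of 0.050.

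Other probe sets of the same genes bear on how far a single probe set can be relied on. For 17 of the 40 genes at least 1 further probe set passed the filter, 27 in all, of which 8 fell, 0 rose and 19 were not called, with 23 of the 27 log2 fold changes negative. Over all 12216 genes tested, with 1 probe set each, 15.3% fell, 14.6% rose and 6245 had a negative log2 fold change. All 3 other BIRC5 probe sets fell, with log2 fold changes of -0.70, -0.94 and -0.41. The second BUB1 probe set had 94.8, 119 and 142 on the MFAP5 arrays, against 321, 188 and 226 on the control arrays (log2 fold change -1.03, limma adjusted p = 0.00966). The second SGO2 probe set also fell (-0.72), as did 2 of 3 other BUB3 probe sets and 1 of 2 for KNL1. For AURKB, CENPF, CENPI, CENPN, CENPU and SGO1 no further probe set was called. The second AURKB probe set had 155, 224 and 171 on the MFAP5 arrays, against 215, 233 and 235 on the control arrays. Those groups overlapped (log2 fold change -0.33, adjusted p = 0.199). The second CENPN probe set in brightness had a positive log2 fold change of 0.11 that was not called.

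**Figure D4:**
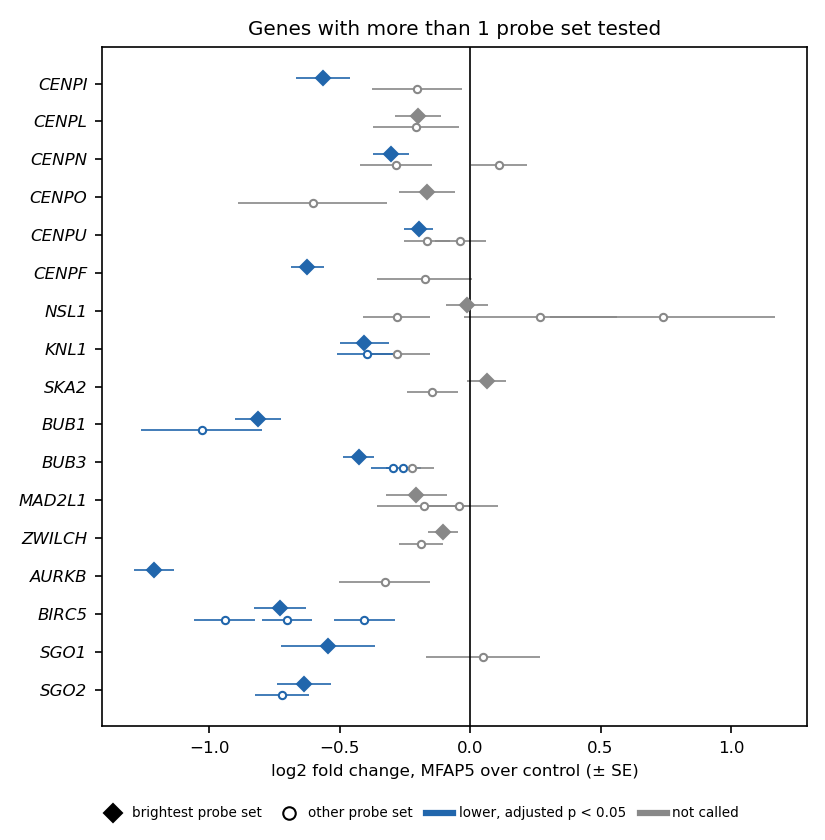
Log2 fold changes of MFAP5 over control with standard errors for the 17 genes with more than 1 probe set past the brightness filter. Diamonds mark the brightest probe set, which stands for the gene, and open circles the others. For BIRC5, BUB1 and SGO2 every probe set fell, while for AURKB the second probe set, at -0.33, was not called.

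Promoter sequence is shown for genes that moved together, because many genes of G2 and mitosis carry a cell cycle homology region (CHR) near their start, to which the DREAM and MYB-MuvB complexes bind, often below CCAAT boxes bound by NF-Y. RefSeq windows (GRCh38.p14) from 250 bases before to 50 bases after the start were found for 33 of the 40 genes. Each was searched on both strands for the CHR words TTTGAA and TTCGAA and for CCAAT. The genes below are the 4 with the largest falls among those with a CHR word. Capitals mark CHR words and CCAAT boxes on either strand (CCAAT reads ATTGG on the other strand, TTTGAA reads TTCAAA), and neighbouring or overlapping words run together.
CDCA8, chr1:37692266-37692565, + strand: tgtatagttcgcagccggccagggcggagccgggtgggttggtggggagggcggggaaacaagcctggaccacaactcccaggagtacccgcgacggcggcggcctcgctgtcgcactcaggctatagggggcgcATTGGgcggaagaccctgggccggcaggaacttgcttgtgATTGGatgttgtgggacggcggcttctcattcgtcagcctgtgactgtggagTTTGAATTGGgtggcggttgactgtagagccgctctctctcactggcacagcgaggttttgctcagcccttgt
NDC80, chr18:2571307-2571606, + strand: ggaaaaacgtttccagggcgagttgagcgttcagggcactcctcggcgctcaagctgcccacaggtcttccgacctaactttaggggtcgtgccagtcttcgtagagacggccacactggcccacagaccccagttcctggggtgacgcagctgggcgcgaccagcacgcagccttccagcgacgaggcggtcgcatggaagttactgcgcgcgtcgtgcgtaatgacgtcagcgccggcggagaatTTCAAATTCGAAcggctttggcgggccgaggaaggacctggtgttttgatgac
BUB1, chr2:110678014-110678313, - strand: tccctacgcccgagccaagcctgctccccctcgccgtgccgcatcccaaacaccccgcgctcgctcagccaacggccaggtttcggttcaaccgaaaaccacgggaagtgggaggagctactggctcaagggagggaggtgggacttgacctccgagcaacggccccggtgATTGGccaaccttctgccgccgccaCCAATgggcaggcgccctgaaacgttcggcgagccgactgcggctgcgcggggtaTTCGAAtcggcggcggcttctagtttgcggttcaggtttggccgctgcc
CENPA, chr2:26785806-26786105, + strand: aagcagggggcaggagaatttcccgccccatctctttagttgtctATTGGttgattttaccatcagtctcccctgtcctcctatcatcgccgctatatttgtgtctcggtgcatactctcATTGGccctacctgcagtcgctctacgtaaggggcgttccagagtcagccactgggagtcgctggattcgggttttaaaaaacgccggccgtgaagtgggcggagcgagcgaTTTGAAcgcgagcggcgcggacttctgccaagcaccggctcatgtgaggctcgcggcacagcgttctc

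The CHR word of CDCA8 begins 23 bases before the start and overlaps 1 of its 3 CCAAT boxes. In CENPA it begins 18 bases before the start, with 2 CCAAT boxes further upstream. In BUB1 it begins 1 base after the start, with 2 CCAAT boxes upstream, and NDC80 has 2 CHR words side by side and no CCAAT. Of the 33 genes with a window, 17 (51.5%) held a CHR word and 21 (63.6%) a CCAAT box, against 15.4% and 43.1% of the 9985 genes tested on the arrays that have a window. Both words were found for 11 of the 33 (33.3%), against 8.45%. Some genes have more than 1 window, 37 for the 33 genes, and each word was counted in any window of a gene. The 2 words may therefore lie in different windows. A CHR word was found for 13 of the 19 genes that fell and for 4 of the 14 that were not called or rose. Both words were found for 10 of 19 and 1 of 14. The 4, CENPO, MAD2L1, SKA1 and SKA3, had negative log2 fold changes (-0.16, -0.21, -0.21 and -0.13) and overlapped between groups. Of all 40 genes tested, 35 had a negative log2 fold change. BIRC5, BUB3, CENPM, KNL1 and TTK fell but had no window. The split was made on the calls, and its difference was not tested. Of the genes that fell, AURKB, CENPE, CENPI, CENPU, DSN1 and SGO2 had no CHR word in the window. A CCAAT box without a CHR word was found for AURKB, CENPU and SGO2, which fell, and for MIS12, which rose. It was also found for CENPK, CENPQ, PMF1, SKA2, SPC24 and ZWILCH, which were not called. A match of letters does not show that a factor binds there, and the lack of one in this window says nothing about the factor.

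Genes that work beside these in mitosis were described from 4 further lists, whose members do not include the 40. These lists too were chosen with earlier results of these data known. Of 23 other centromere and kinetochore genes tested, 12 fell (52.2%), 2 rose and 9 were not called (median log2 fold change -0.34). Of all genes tested, 15.3% fell and 14.6% rose. CDC20, which the checkpoint holds in check, had 4654, 3705 and 3455 on the MFAP5 arrays, against 8086, 7801 and 6841 on the control arrays (log2 fold change -0.95). OIP5 and MIS18A, which prepare centromeres for new CENP-A, fell 1.81-fold and 1.60-fold (limma adjusted p = 2.53e-05 and 0.000156). The mitotic kinase PLK1 fell 1.58-fold. The 2 genes that rose were NDEL1, a dynein regulator, by 1.32-fold and CLASP1, which binds microtubule ends, by 1.27-fold.

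Of 28 genes of cohesin, separase and the anaphase promoting complex, 10 fell (35.7%), 1 rose and 17 were not called (median -0.15). The shares over all genes tested were 15.3% lower and 14.6% higher. The securin PTTG1 had 9915, 9049 and 8844 on the MFAP5 arrays, against 17196, 16288 and 14306 on the control arrays, a fall of 1.72-fold. The separase ESPL1 fell 1.48-fold, ANAPC15, a subunit of the anaphase promoting complex, 1.49-fold, and UBE2C, its ubiquitin-conjugating enzyme, 1.45-fold. ANAPC13, a further subunit, was 1.37-fold higher (limma adjusted p = 0.000762).

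Of 35 genes of replication licensing and forks, which act in G1 and S phase, 13 fell (37.1%), 0 rose and 22 were not called by limma (median -0.17). Among all genes tested 15.3% fell and 14.6% rose. ORC1 had 344, 452 and 489 on the MFAP5 arrays, against 706, 682 and 625 on the control arrays, a fall of 1.58-fold, and PRIM1, a primase subunit, fell 1.42-fold. ORC2 and RFC2, a clamp loader subunit, fell 1.34-fold and 1.32-fold. Whether this list differs from the kinetochore and checkpoint genes was not tested.

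Of 23 regulators of cell cycle gene transcription, 3 fell, 1 rose and 19 were not called (median -0.068), a share near the 15.3% of all genes. CDKN1A encodes p21, an inhibitor of cyclin-dependent kinases, and had 521, 536 and 532 on the MFAP5 arrays, against 286, 267 and 288 on the control arrays. CDKN1A was 1.89-fold higher, with no overlap between groups (log2 fold change 0.92 ± 0.11, SE, limma adjusted p = 0.000239). FOXM1, an activator of G2 and mitotic genes, had 2366, 2404 and 2198 on the MFAP5 arrays, against 3022, 2952 and 2875 on the control arrays, a fall of 1.27-fold (limma adjusted p = 0.00419). TFDP2, a partner of E2F factors, fell 1.30-fold and NFYC, a subunit of NF-Y, 1.22-fold.

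**Figure D5:**
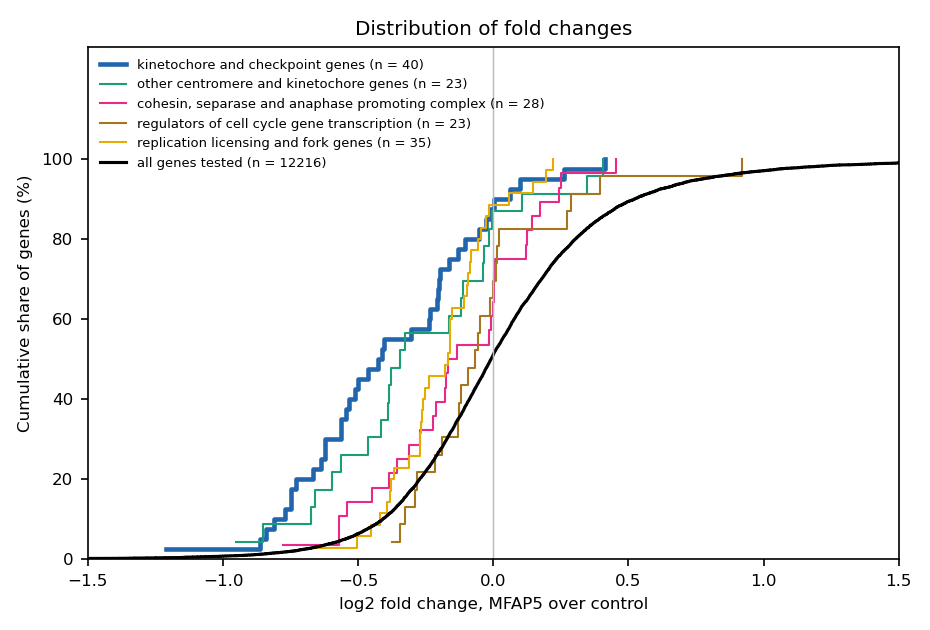
Cumulative share of genes (%) against the log2 fold change of MFAP5 over control, for the 40 kinetochore and checkpoint genes, the 4 further lists and all 12216 genes tested. The medians were -0.42 for the 40 genes, -0.34 for the other centromere and kinetochore genes and -0.0084 for all genes.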

How the data were processed

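For each array the deposited file gives every probe set's intensity on a linear scale. MAS5 is the tool named in the submitters' processing notes, and its version is not given in the sources used here. The deposited arrays shared a trimmed mean of 500.07 (2% left out at each end), which hides any change common to most transcripts. Genes were named from the platform annotation, in which 41091 probe sets carry 1 symbol. Of 54675 probe sets, 62 Affymetrix controls and those with a mean log2 signal below the median (a signal of 53.7) were left out, which left 27307. MFAP5 and control arrays, grouped by sample title, were compared on log2 signals in R 4.3.3 by the package limma (version 3.58.1, functions lmFit and eBayes, trend on). Tests were two-sided, and p-values were adjusted over all tested probe sets by the Benjamini-Hochberg method, at a threshold of 0.05.

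The members and lists were chosen with earlier results of these data known. Every measured member is named. Of each further list, up to 4 called genes with the largest change are named, with the genes that went against the rest. Promoters are printed for up to 4 called genes with a CHR word, by largest change. Of the 40 genes, 14 are represented by a probe set of a type (s, x or a) that can match more than 1 transcript, and 4 by type x (CENPA, CENPH, SKA1 and BUB3). The alternatives changed the scaling, the offset, the filter, the variance model, the probe set, the replicate block and the arrays included. The number of arrays limits the precision.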

Additional observations from a re-analysis of the deposited data

How the results depend on the processing

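Of the 25 calls among the 40 genes, 18 kept their direction and their side of the threshold under each of the 16 alternatives that tested them, and 7 did not (CENPN, CENPU, DSN1, INCENP, KNL1, MIS12 and SGO1). The number of genes that fell was 20 to 22 with 1 array left out. In those fits 10.1% to 15.1% of all genes fell and 10.6% to 14.4% rose. The number was 19 with centring on hybridisation controls, where 8.94% of all genes fell and 7.49% rose. With the brightest plain probe set 17 of the 31 genes tested fell, where 12.7% of all genes fell and a larger share rose. With centring on array medians 28 genes fell, with CENPH, CENPL, PMF1 and ZWILCH added to the calls. The number that rose was 0 with centring on hybridisation controls, and 0 with the brightest plain probe set, where MIS12 has none and 31 genes were tested. The median log2 fold change was -0.56 with centring on array medians, -0.48 with centring on hybridisation controls, -0.37 with the mean of a gene's probe sets, -0.46 with the brightest plain probe set and -0.44 to -0.37 with 1 array left out. Centring on array medians moved the median of all genes to -0.15, with 28.1% of all genes lower and 9.15% higher. That centring and the one on hybridisation controls shift all genes of an array alike, so the median of the 40 genes relative to all genes is -0.41 under both by construction.

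CENPN turned positive (0.11) with the brightest plain probe set. Genes not called crossed 0 with quantile normalization (NSL1 0.0046, MAD1L1 -0.0039), with array medians (CENPK -0.041, SKA2 -0.075, MAD1L1 -0.14), with hybridisation controls (MAD1L1 -0.055) and with the mean of probe sets (NSL1 0.18, SKA2 -0.041). With 1 array left out they ranged from -0.17 to 0.43 for CENPK, -0.16 to 0.091 for CENPQ, -0.12 to 0.0010 for SPC24, -0.081 to 0.030 for NSL1 and -0.075 to 0.049 for MAD1L1. The cause was not tested.

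The sample titles link same-numbered arrays of the groups by a number only. Deviations from the group means correlated at 0.089, -0.0071 and 0.17 for same-numbered arrays, and from -0.18 to 0.10 for the other pairs. These values do not settle whether the arrays were paired. MFAP5 arrays 1 and 2 correlated best with control arrays 2 and 3 (0.10 and 0.027), and MFAP5 array 3 with control array 3 (0.17). With the replicate number as a block, 24 genes fell and 1 rose, with a median of -0.42. In that fit 18.0% of all genes fell and 16.9% rose. CENPK, CENPQ, CENPT, SKA1, INCENP and SGO1 had signals nearer to the Bacillus controls than the other listed genes, and standard errors from 0.17 to 0.33. Among them CENPK, with signals of 165 to 376 over all arrays, had the largest error (0.33). SKA1, with 106 to 161, was dimmer and had 0.21. The errors of SGO1, CENPQ, CENPT and INCENP were 0.18, 0.18, 0.17 and 0.17. Whether low signal widened these errors was not tested.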
